A study of Mus musculus with 4 samples.

Results

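The 10 genes described here encode the SMAD proteins and their negative regulators: the transducers *Smad1*, *Smad2*, *Smad3*, *Smad4* and *Smad5*, the inhibitory SMADs *Smad6* and *Smad7*, the corepressors *Ski* and *Skil*, and the ubiquitin ligase gene *Smurf2*. They were taken by symbol from a fixed list, and all 10 were found among the 25239 gene symbols of the count tables. All 10 also passed the filter on low counts, which kept 13919 genes. RNA-Seq was performed on CD4+ T cells that had been isolated from lung tumors of C57BL/6 mice. The labels assign 2 libraries to WT and 2 to CD4/ALK4-KO, and these names stand below for the labels. The CD4/ALK4-KO genotype was CD4CreERT2+/-/Acvr1bfl/fl, in which tamoxifen activates a Cre recombinase driven from *Cd4*, so that *Acvr1b*, the gene of the activin receptor ALK4, is to be deleted in cells that express *Cd4*. The methods describe male mice of 8 to 10 weeks and 5 doses of tamoxifen at 75 mg/kg, and do not say whether the WT mice received it. All mice were inoculated intravenously with LLC-OVA cells, which are Lewis lung carcinoma cells made to express ovalbumin. Tumors were taken on days 18 to 22 by the sample labels and on days 16 to 20 by the methods. How many mice contributed to a library was not given in the sources used here.

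SMAD proteins carry signals of the TGF-β superfamily from the cell surface to the nucleus. ALK4 and the TGF-β type I receptor phosphorylate SMAD2 and SMAD3 at their C-terminal serines, BMP type I receptors phosphorylate SMAD1 and SMAD5, and the activated proteins join SMAD4 to regulate transcription. SMAD6 and SMAD7 block the pathway at the receptor, SKI and SnoN (the product of *Skil*) repress transcription by SMAD complexes, and SMURF2 marks SMADs and receptors for degradation. *Smad7* and *Skil* are themselves induced by activin and TGF-β, and thus form negative feedback loops. In T cells, this pathway is known for its part in tolerance and in regulatory T cell differentiation.

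The division between receptor-regulated and other SMADs can be read from the 3′ ends of their coding sequences, which are shown for 4 members because the receptors act on this stretch. Each sequence is the last 30 coding bases of the gene in GENCODE M21 on GRCm38, read 5′ to 3′ along the gene, and the capitals mark the last 4 codons before the stop codon.
Smad1, chr8:79339649-79339678, minus strand: ccccacaatcctattTCATCCGTGTCTtaa
Smad5, chr13:56737449-56737478, plus strand: ccgctgaaccccattTCTTCTGTTTCAtag
Smad3, chr9:63650262-63650291, minus strand: ccgagcatccgctgtTCCAGTGTGTCTtag
Smad6, chr9:63953524-63953553, minus strand: ctggagatcctactcAACAACCACAGAtag
In *Smad1*, *Smad3* and *Smad5* the capitals encode 2 serines, a further residue and a last serine, the motif that receptors phosphorylate. The coding sequence of *Smad2* ended with the same pattern, whereas those of *Smad4*, *Smad6* and *Smad7* did not. The coding sequences of *Smad2* and *Smad3* were 77.1% identical when aligned, those of *Smad1* and *Smad5* 77.3%, those of *Smad6* and *Smad7* 68.7%, and those of *Ski* and *Skil* 62.1%. No stretch of 75 bases, the read length, was shared between the transcripts of a member and those of any other gene, except for 26 of 7556 such stretches in *Smad5*, which lie in the overlapping gene *Gm27301*, itself not counted in the tables. Reads of the members were therefore not shared among them by sequence.

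The deposited counts summed to between 11823908 and 13943237 per library. The targeted gene *Acvr1b* (chromosome 15, 101174067 to 101213684) was counted 426 and 342 times in WT and 322 and 445 times in CD4/ALK4-KO, with a log2 fold change of 0.16 ± 0.24 (SE) and an adjusted p of 0.66 in edgeR's quasi-likelihood test, so its level did not separate the labels. These counts cover the whole gene, and the deleted exons were not analysed on their own. *Cd4*, the gene of the coreceptor used for isolation, rose from 51.7 ± 5.24 to 317 ± 13.9 CPM (counts relative to the TMM-scaled library size, mean ± SD, n = 2 per genotype). All 18 markers of T cell identity were higher in CD4/ALK4-KO, with summed levels of 557 to 600 CPM in WT and 3092 to 3198 in CD4/ALK4-KO. The 12 macrophage and monocyte markers summed to 6751 to 7622 CPM in WT and 6389 to 6639 in CD4/ALK4-KO. These sums exceeded those of the T cell markers in all 4 libraries, but in CD4/ALK4-KO only through *Lyz2*. That gene alone had 4278 and 5687 CPM in WT and 4758 and 4227 in CD4/ALK4-KO. The 6 markers of CD8 T cells and NK cells were all higher too, at 69.6 to 81.8 CPM in WT and 303 to 424 in CD4/ALK4-KO. The 7 B cell markers were all higher as well, at 57.9 to 70.3 CPM in WT and 198 to 372 in CD4/ALK4-KO. Of the 7 fibroblast markers 4 were lower, with sums of 6712 to 7307 CPM in WT and 3965 to 4773 in CD4/ALK4-KO. The fibroblast sums also exceeded those of the T cell markers in all 4 libraries. Of the 7 epithelial markers tested 4 were lower and 2 higher. The part of this difference in composition in the results below was not tested, and in such bulk libraries fewer cells of a type cannot be told apart from less RNA of a gene per cell.

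Of the 10 members, *Smad7* and *Skil*, the feedback inhibitors, passed edgeR's quasi-likelihood test after Benjamini-Hochberg adjustment and were higher in CD4/ALK4-KO, and no member was called lower. The threshold was an adjusted p of 0.05. This is 20% of the members, while 17.4% of all genes tested were called higher, 15.4% lower and 32.8% in either direction. The share of members called higher was near the background, and the share called in either direction was below it, on only 10 members. The number called higher was 1 without WT replicate 1 (7.66% of genes tested), 0 without WT replicate 2 (9.34%) and 4 without CD4/ALK4-KO replicate 1 (20.3%), where *Smad5* was also called lower (17.5%). Another 2 members, *Smad3* and *Smad4*, had an unadjusted p under 0.05 in edgeR's test with all 4 libraries, which makes 4 members. Of all genes tested at least 32.8% had one, since that share passed the adjusted threshold in either direction. The CPM of the genotypes did not overlap for 6 members, against 66.7% of all genes tested. In 5 of them the values of CD4/ALK4-KO were the higher ones, against 32.7%, and in 1 the lower ones, against 34%. The median log2 fold change of the 10 members was 0.34, and that of all genes tested was -0.01.

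*Smad2* (chromosome 18, 76241580 to 76310963, plus strand) encodes a transducer of activin and TGF-β signals. It had 1127 and 1072 counts in WT and 946 and 932 in CD4/ALK4-KO, which is 82.2 and 79.2 CPM against 79.5 and 75.5 CPM. The genotypes overlapped, and the log2 fold change of -0.06 ± 0.21 had a 95% interval from -0.49 to 0.37 (adjusted p = 0.86, edgeR). *Smad3* (chromosome 9, 63646767 to 63757994, minus strand) is its partner in the same branch. It had 607 and 497 counts in WT and 559 and 812 in CD4/ALK4-KO, or 44.3 and 36.7 CPM against 47.0 and 65.8 CPM. Both CD4/ALK4-KO values lay above both of WT, yet they differed from each other by more than the gap between the genotypes. The log2 fold change of 0.48 ± 0.23 did not pass the test (95% interval 0.00049 to 0.95, adjusted p = 0.12, edgeR), and depended on the libraries. It was 0.21 without CD4/ALK4-KO replicate 2 (adjusted p = 0.53, edgeR), 0.34 without WT replicate 2 (0.58), 0.61 without WT replicate 1 (0.29) and 0.73 without CD4/ALK4-KO replicate 1, where it passed (0.0049).

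*Smad1* and *Smad5* encode the transducers of BMP signals. *Smad1* (chromosome 8, 79338395 to 79399518, minus strand) was the less abundant, at 282 and 210 counts in WT and 173 and 211 in CD4/ALK4-KO. Its levels of 20.6 and 15.5 CPM against 14.5 and 17.1 CPM overlapped, and its log2 fold change was -0.19 ± 0.27 with a 95% interval from -0.76 to 0.37 (adjusted p = 0.64, edgeR). Without WT replicate 1 the value was 0.02, so that its sign rested on that library. *Smad5* (chromosome 13, 56703010 to 56742377, plus strand) had 1250 and 1771 counts in WT and 1050 and 938 in CD4/ALK4-KO. At 91.2 and 130.9 CPM against 88.2 and 76.0 CPM it was the 1 member with non-overlapping lower values, though WT replicate 1 was close to CD4/ALK4-KO replicate 1. Its log2 fold change of -0.44 ± 0.22 did not pass the test (95% interval -0.90 to 0.03, adjusted p = 0.14, edgeR). With a library left out, the log2 fold change ranged from -0.16 without WT replicate 2 (adjusted p = 0.81, edgeR) to -0.68 without WT replicate 1 (0.17), and only without CD4/ALK4-KO replicate 1 did it pass, at -0.52 and an adjusted p of 0.045.

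*Smad4* (chromosome 18, 73639009 to 73703780, minus strand) encodes the common partner of all receptor-regulated SMADs. It had 839 and 780 counts in WT and 908 and 1081 in CD4/ALK4-KO, which is 61.2 and 57.7 CPM against 76.3 and 87.6 CPM. Both CD4/ALK4-KO values were above those of WT, and the log2 fold change was 0.46 ± 0.21 with a 95% interval from 0.02 to 0.90 and an adjusted p of 0.10 in edgeR's test. It passed without CD4/ALK4-KO replicate 1, at 0.59 and an adjusted p of 0.020, and with any other library left out it lay between 0.35 and 0.50 with adjusted p-values of 0.20 to 0.47.

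**Figure D1:**
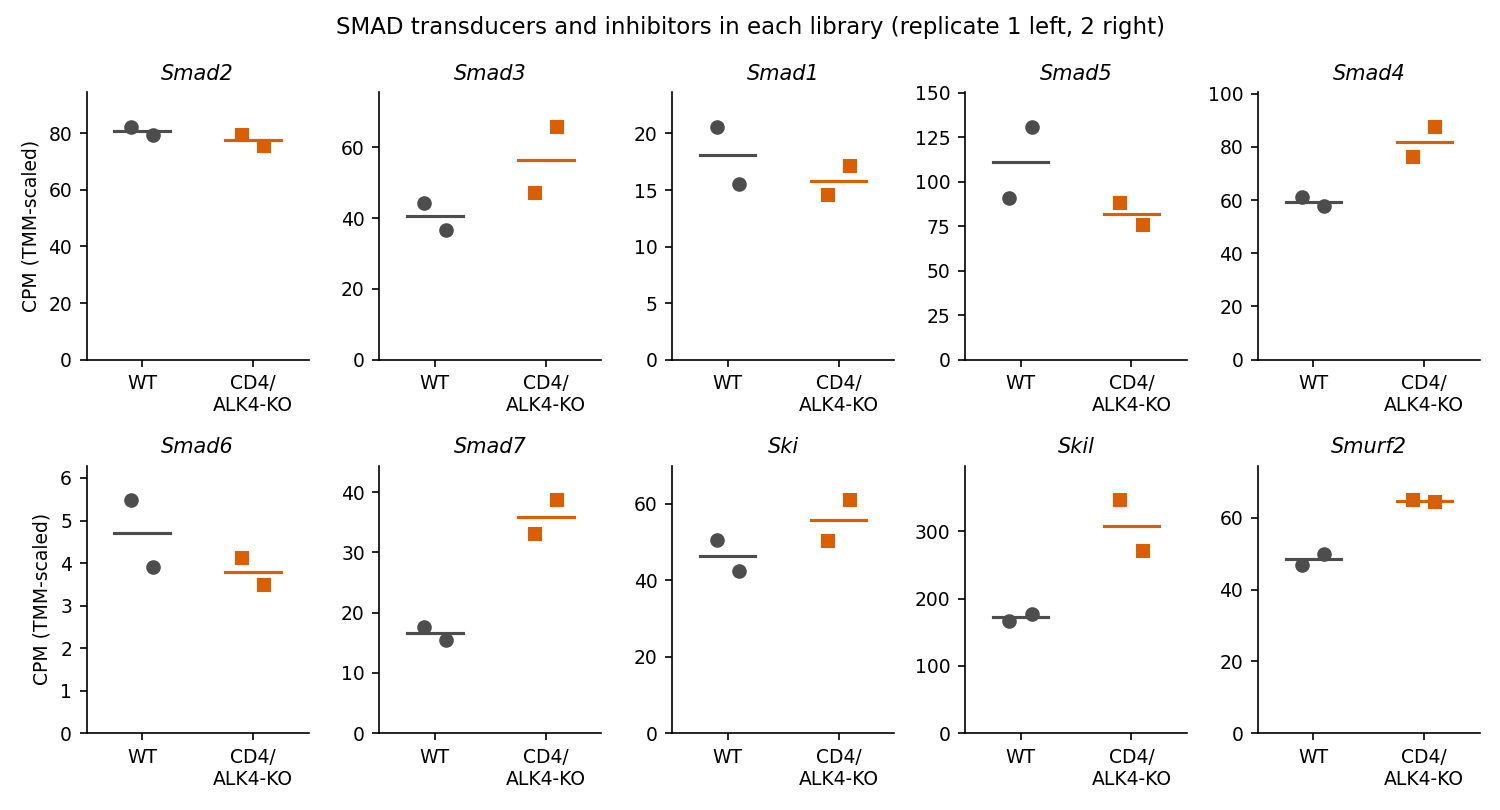
TMM-scaled CPM of the 10 members in each library, with 1 point per library, WT and CD4/ALK4-KO side by side and a line at the mean of each genotype. *Smad7* and *Skil* show the largest fold differences, from 16.6 to 35.8 and from 172 to 308 CPM on average, whereas the points of *Smad1*, *Smad2*, *Smad6* and *Ski* overlap.

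Of the inhibitory SMADs, *Smad7* was higher and *Smad6* was not called. *Smad7* (chromosome 18, 75367529 to 75395935, plus strand), whose product recruits ubiquitin ligases to activated receptors, had 242 and 210 counts in WT and 393 and 477 in CD4/ALK4-KO. The corresponding 17.7 and 15.5 CPM in WT did not overlap with the 33.02 and 38.6 CPM in CD4/ALK4-KO, and the means were 16.6 ± 1.51 and 35.8 ± 3.97 CPM (SD, n = 2). The 2.16-fold difference, a log2 fold change of 1.11 ± 0.25 with a 95% interval from 0.60 to 1.63, had an adjusted p of 0.0016 in edgeR's quasi-likelihood test. Of the alternatives listed under processing, those with all 4 libraries and a scale on which *Smad7* was higher were compared. Scaling to 4 T cell receptor complex genes, under which *Smad7* was called lower at a log2 fold change of -1.23, is thus left out. Over those compared, the adjusted p of *Smad7* ranged from 0.00022 without a filter to 0.0079 with the replicate block (edgeR). The call was lost without WT replicate 2, while the log2 fold change remained between 0.99 and 1.25 with any library left out. *Smad6* (chromosome 9, 63953076 to 64022059, minus strand), which acts mainly against BMP signals, was the rarest member, with 75 and 53 counts in WT and 49 and 43 in CD4/ALK4-KO. Its 5.47 and 3.92 CPM against 4.12 and 3.48 CPM overlapped, and with so few counts the 95% interval of its log2 fold change of -0.31 ± 0.41 reached from -1.16 to 0.54 (adjusted p = 0.61, edgeR).

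Of the corepressors, *Skil* was higher and *Ski* was not called. *Skil* (chromosome 3, 31095058 to 31122577, plus strand) had 2282 and 2404 counts in WT and 4115 and 3334 in CD4/ALK4-KO. Its levels of 166.5 and 177.7 CPM in WT and 345.7 and 270.0 CPM in CD4/ALK4-KO did not overlap, with means of 172 ± 7.92 and 308 ± 53.5 CPM (SD, n = 2). The 1.79-fold difference, a log2 fold change of 0.84 ± 0.22 with a 95% interval from 0.38 to 1.30, had an adjusted p of 0.0058 in edgeR's test. The call was lost without either WT library, with an adjusted p of 0.16 without WT replicate 1 and 0.089 when WT replicate 2 was left out, while the log2 fold change was 0.78 and 0.88, and the number of genes called higher was also lower in both fits, at 1103 and 1344 against 2422. Over the same alternatives as for *Smad7*, with all 4 libraries, its adjusted p ranged from 0.00056 in the DESeq2 Wald test to 0.042 with the replicate block (edgeR). *Ski* (chromosome 4, 155154075 to 155222592, minus strand) had 691 and 575 counts in WT and 600 and 752 in CD4/ALK4-KO. Its 50.4 and 42.5 CPM against 50.4 and 60.9 CPM overlapped at their edge, and its log2 fold change was 0.26 ± 0.22 with a 95% interval from -0.20 to 0.72 (adjusted p = 0.39, edgeR).

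*Smurf2* (chromosome 11, 106820066 to 106920715, minus strand), which encodes a ligase that SMAD7 brings to the receptors, had 643 and 676 counts in WT and 772 and 794 in CD4/ALK4-KO. Its values were 46.9 and 49.97 CPM in WT and 64.9 and 64.3 CPM in CD4/ALK4-KO, and the genotypes did not overlap. The log2 fold change of 0.41 ± 0.21 nonetheless did not pass the test (95% interval -0.03 to 0.86, adjusted p = 0.14, edgeR). This test takes the spread from many genes of these 4 libraries and not from the 4 values of *Smurf2* alone. With any library left out its log2 fold change lay between 0.36 and 0.45, and it was not called.

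**Figure D2:**
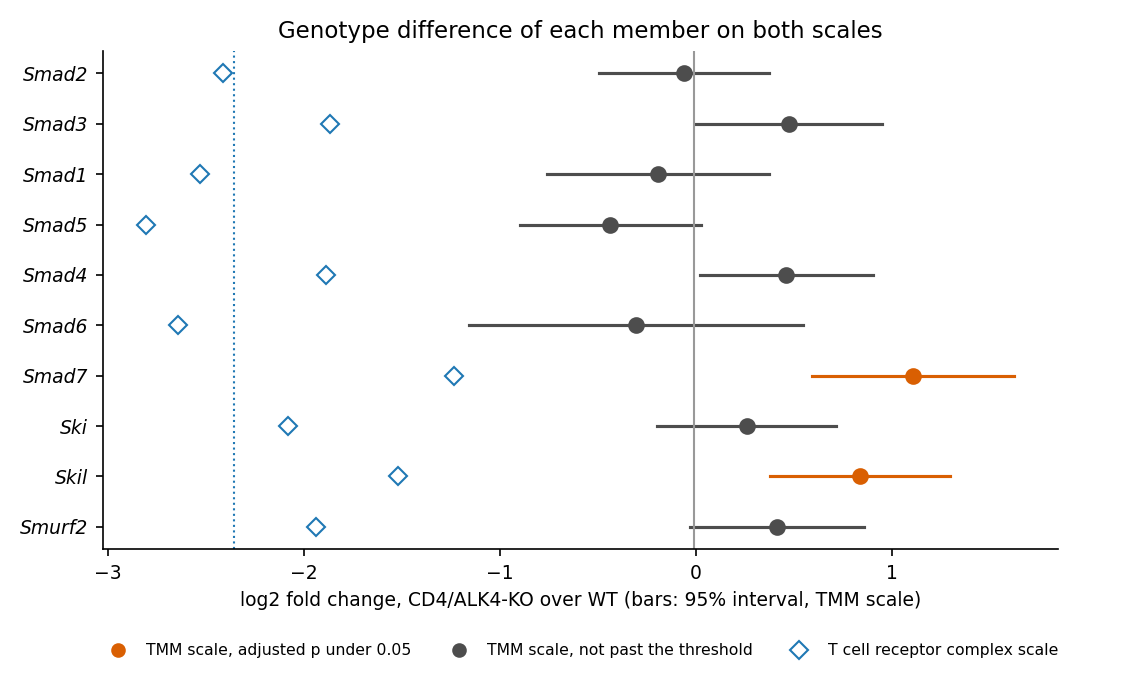
Log2 fold change of each member, CD4/ALK4-KO minus WT, on the TMM scale (circles, with 95% intervals) and on the scale of 4 genes of the T cell receptor complex (diamonds), with vertical lines at the median of all genes tested on each scale. On the TMM scale *Smad7* (1.11) and *Skil* (0.84) lie highest and pass the test, and on the T cell receptor scale all 10 members lie below 0, from -1.23 for *Smad7* to -2.80 for *Smad5*.

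For the 6 members with a log2 fold change above 0, the sign followed from the scale chosen, and the other 4 were below 0 on both scales. On the TMM scale, which sets the bulk of genes equal, *Smad7* and *Skil* rose, whereas on a scale that sets the genes *Cd3d*, *Cd3e*, *Cd3g* and *Cd247* of the T cell receptor complex equal, all 10 members were called lower, as were 93.5% of all genes tested. The change of scale shifted the log2 fold changes by a median of -2.35, so that each gene with a smaller rise on the TMM scale had to turn negative. The log2 fold change on that scale was -1.23 for *Smad7* and -1.52 for *Skil*, and the median of the members was -2.01, against -2.36 over all genes tested. Per mean count of the receptor complex genes, *Smad7* stood at 0.467 and 0.455 in WT and at 0.176 and 0.216 in CD4/ALK4-KO. *Skil* stood at 4.40 and 5.21 in WT and at 1.85 and 1.51 in CD4/ALK4-KO. The order of the members is that of the TMM scale, from *Smad7* and *Skil* to *Smad5*, at -2.80. Which cells of the libraries the transcripts came from cannot be told apart from these counts.

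Ratios between members inside a library do not depend on the scale between libraries, and 8 were compared on counts per kb of exon. The ratio of *Smad7* to *Smad2* plus *Smad3*, an inhibitor to the transducers it restrains, was 0.225 and 0.219 in WT and 0.417 and 0.418 in CD4/ALK4-KO, a 1.88-fold difference between genotypes whose replicates were nearly equal. The ratio of *Smad7* to *Smad6* was 2.29 and 2.81 in WT and 5.69 and 7.86 in CD4/ALK4-KO. The ratio of *Skil* to *Ski* was 1.89 and 2.40 in WT and 3.94 and 2.54 in CD4/ALK4-KO, so that 1 library came close to the WT values. *Smurf2* to *Smad7* had the opposite direction, at 1.95 and 2.36 in WT and 1.44 and 1.22 in CD4/ALK4-KO. Within the activin and TGF-β branch, *Smad2* to *Smad3* was 1.17 and 1.36 in WT and 1.07 and 0.724 in CD4/ALK4-KO. The transducers of activin and TGF-β relative to those of BMP, *Smad2* plus *Smad3* to *Smad1* plus *Smad5*, stood at 1.11 and 0.778 in WT and at 1.23 and 1.58 in CD4/ALK4-KO. These 6 ratios did not overlap between the genotypes, with p = 0.333 in the two-sided exact permutation test, the smallest that 2 libraries against 2 allow, and 0.444 after adjustment over the 8 ratios. The share of ratios between other genes that do not overlap was not computed, and of single genes tested 66.7% did not. Several of the 6 ratios share *Smad7* or *Smad2* and *Smad3*, so they are not separate observations. The other two overlapped (p = 1, exact permutation test): *Smad3* to *Smad4* was 0.485 and 0.427 in WT and 0.412 and 0.503 in CD4/ALK4-KO, and *Smad6* to *Smad1* plus *Smad5* was 0.110 and 0.0607 against 0.0904 and 0.0838.

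**Figure D3:**
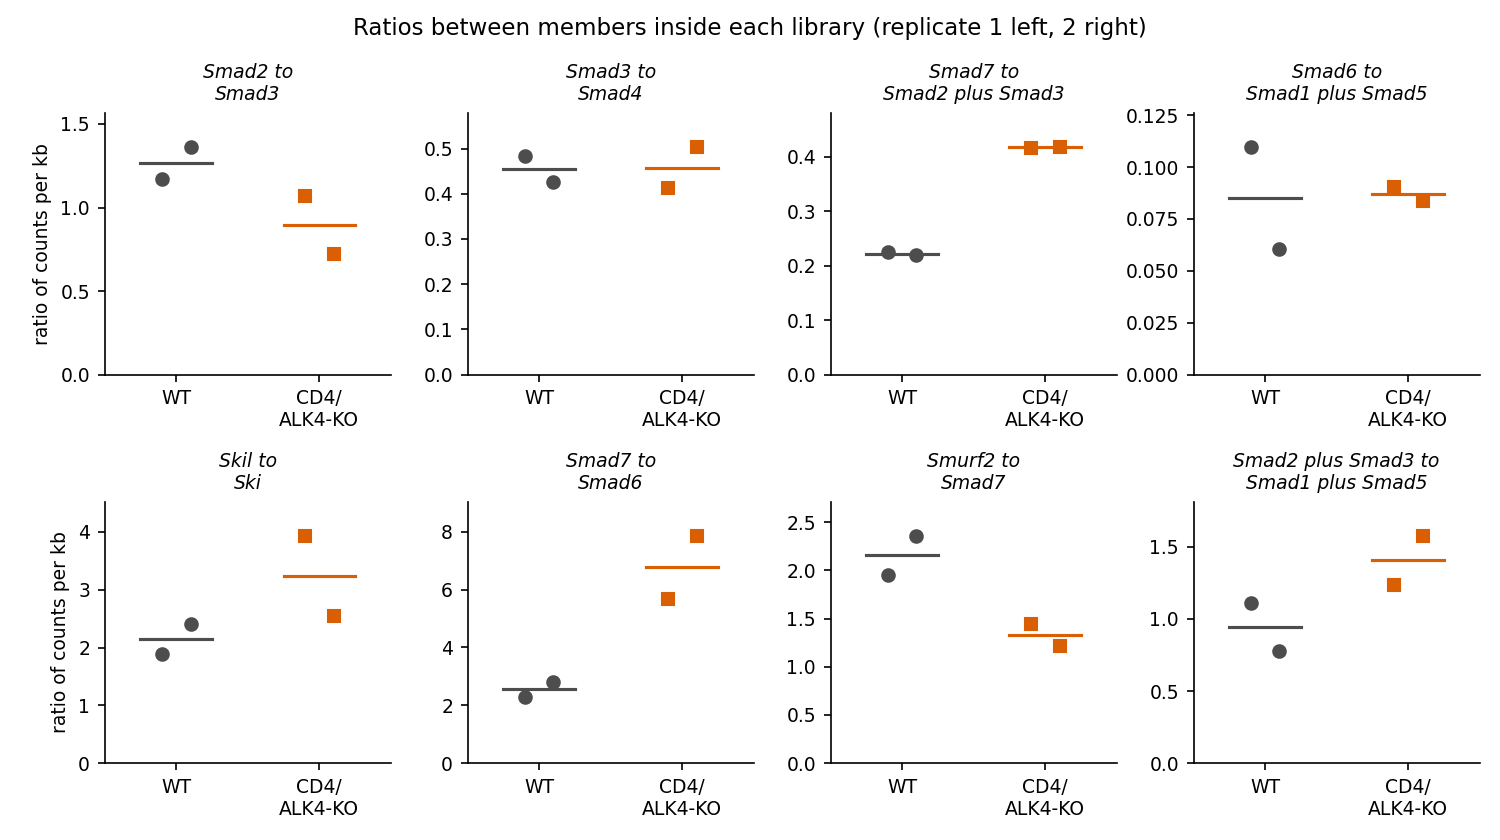
The 8 ratios between members in each library, from counts per kb of exon on linear axes that start at 0, with 1 point per library and a line at each genotype's mean. The ratio of *Smad7* to *Smad2* plus *Smad3* has the closest replicates, 0.225 and 0.219 in WT against 0.417 and 0.418 in CD4/ALK4-KO, and *Smad7* to *Smad6* the largest difference.

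Levels were compared between members as CPM per kb of exon. In WT *Skil* had the highest mean at 17.8, followed by *Smad4* at 16.01 and *Smad5* at 14.97, whose values overlapped. *Smad5* also overlapped with *Skil*, at 17.6 in WT replicate 2 against 17.2 for *Skil* in WT replicate 1. *Smad2* at 9.20, *Ski* at 8.35, *Smurf2* at 7.86 and *Smad3* at 7.31 came next, and each overlapped with its neighbour in the order. *Smad7* at 3.67, *Smad1* at 2.88 and *Smad6* at 1.47 were the lowest. In CD4/ALK4-KO the order was *Skil* at 31.8, *Smad4* at 22.1, then *Smad5* at 11.1, *Smurf2* at 10.5, *Smad3* at 10.2 and *Ski* at 10.01, which overlapped with their neighbours. *Smad2* at 8.82, *Smad7* at 7.92, *Smad1* at 2.53 and *Smad6* at 1.19 completed it. *Smad3*, at 8.47 in CD4/ALK4-KO replicate 1, overlapped with *Smad2* and *Smad7* too. *Skil* was first and *Smad6* last in both genotypes, also when the longest transcript or the coding length was used in place of the exons, but the order between them depended on the length. Per coding length *Smad2* moved to rank 3 and *Smad4* to rank 4 in both genotypes, from rank 4 in WT and 7 in CD4/ALK4-KO for *Smad2* and rank 2 for *Smad4*. Summed over the 10 members, the level was 88.9 and 90.1 CPM per kb in WT and 116 in both libraries of CD4/ALK4-KO. The corepressors contributed 26.2 and 26.0 of it in WT and 44.7 and 38.8 in CD4/ALK4-KO. The inhibitory SMADs contributed 5.61 and 4.66 in WT and 8.59 and 9.63 in CD4/ALK4-KO, and these sums followed *Skil* and *Smad7*, since *Ski* overlapped and *Smad6* was not higher. The sum of *Smad2* and *Smad3* was 17.4 and 15.7 in WT and 17.5 and 20.5 in CD4/ALK4-KO, and that of *Smad1* and *Smad5* was 15.6 and 20.1 in WT and 14.2 and 13.0 in CD4/ALK4-KO. None of the 4 class sums overlapped between the genotypes, but that of *Smad2* and *Smad3* came close, at 17.4 in WT replicate 1 and 17.5 in CD4/ALK4-KO replicate 1. The share of such sums of other genes that do not overlap was not computed. Of single genes tested, 66.7% did not overlap.

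**Figure D4:**
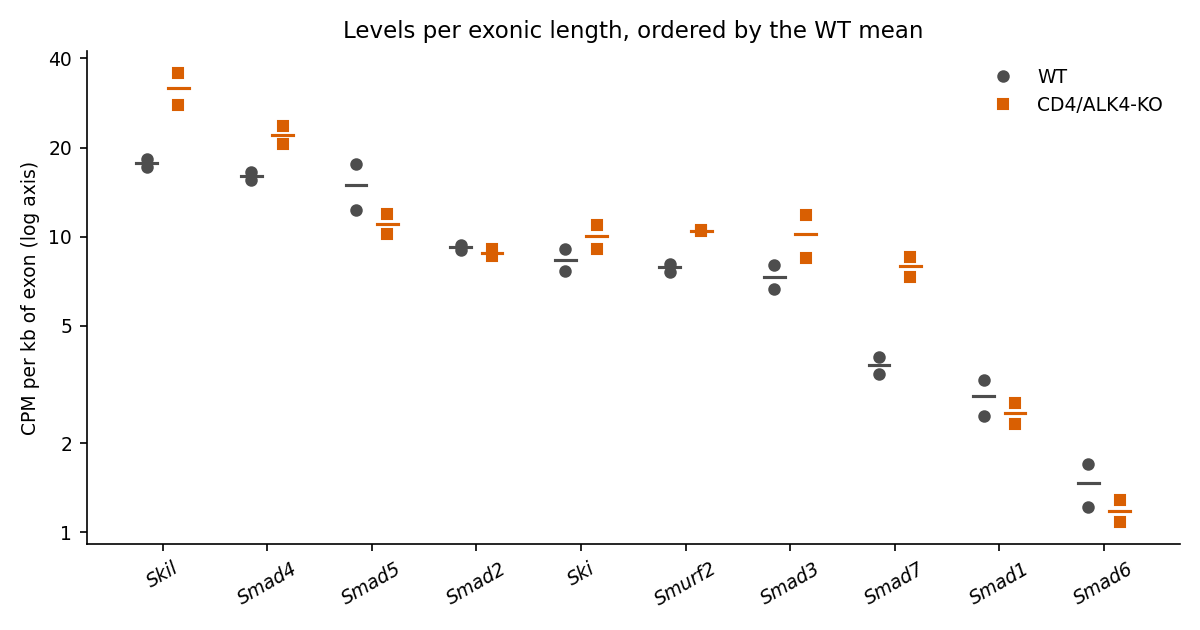
Levels of the 10 members as CPM per kb of exon in each library, ordered by their WT mean on a log axis. *Skil* is highest (17.8 in WT, 31.8 in CD4/ALK4-KO) and *Smad6* lowest (1.47 and 1.19) in both genotypes, and *Smad7* is at 3.67 and 7.92.

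Each member except *Smad4* was also set beside the 1 other gene whose pattern over the 4 libraries was most like its own, by the Euclidean distance of centred log2 CPM among the 10460 genes whose mean count was at least 100. For *Smad7* this was *Nup214*, a nucleoporin gene, at a distance of 0.0286, with 264 and 223 counts in WT and 424 and 517 in CD4/ALK4-KO. For *Skil* it was *Slc30a1*, a zinc exporter gene, at a distance of 0.0455, with 153 and 158 counts in WT and 285 and 232 in CD4/ALK4-KO. The other nearest genes were *Dbnl* for *Smad3*, *Senp2* for *Smurf2*, *Specc1* for *Smad5*, *Mpst* for *Smad2*, *Ino80e* for *Smad1*, *Inpp5a* for *Smad6* and *Tecr* for *Ski*, at distances from 0.00795 for *Specc1* to 0.0590 for *Inpp5a*. With 4 libraries and so many genes, close patterns are found for any gene, and these neighbours are given as a description.

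Of 33 cofactors and regulators of SMADs, 31 were tested, and 6 were higher and 1 was lower. Of all genes tested, 17.4% were called higher and 15.4% lower. *Smad9* and *Foxh1* were under the filter. *Ncor1*, a nuclear corepressor that SKI and SnoN bind, had 1146 and 1370 counts in WT and 2898 and 3465 in CD4/ALK4-KO, at a log2 fold change of 1.503 ± 0.22. The acetyltransferase genes *Crebbp* and *Ep300*, coactivators of SMAD3, had log2 fold changes of 1.36 ± 0.29 and 1.11 ± 0.24, and each had an adjusted p of 0.0010 in edgeR's test. *Ipo7*, an importin gene, was the 1 lower gene, with 6141 and 7052 counts in WT and 4248 and 3344 in CD4/ALK4-KO (log2 fold change -0.63 ± 0.22, adjusted p = 0.033, edgeR), a call that was lost without either WT library, at an adjusted p of 0.16 and 0.33. *Kpnb1*, another importin gene, had a log2 fold change of -0.28 and was not called. The median of the list was -0.03, near that of all genes tested. Without WT replicate 1, 4 were higher and none lower, and without WT replicate 2, 3 were higher and none lower, while the lower genes numbered 4 without CD4/ALK4-KO replicate 1 and 3 without replicate 2 of that genotype.

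Of 13 receptors of the superfamily, 12 were tested, of which 1 was higher and 4 were lower, beside 17.4% and 15.4% of all genes tested. *Tgfbr2*, the TGF-β type II receptor gene, rose from 1194 and 1195 counts in WT to 1894 and 2606 in CD4/ALK4-KO (log2 fold change 1.08 ± 0.22, adjusted p = 0.00062, edgeR). Its log2 fold change was -1.27 on the T cell receptor scale. *Bmpr1a*, a BMP type I receptor gene, fell from 2528 and 2749 counts to 1650 and 1162, by a log2 fold change of -0.74 ± 0.23, and *Eng*, a coreceptor gene of endothelial cells and macrophages, fell from 328 and 219 to 88 and 148. *Acvr2b*, an activin type II receptor gene, had 78 and 86 counts in WT and 14 and 35 in CD4/ALK4-KO, with a log2 fold change of -1.58 ± 0.46. *Tgfbr1* had a log2 fold change of 0.27 and was not called. The 4 lower calls became 0 without WT replicate 1, 1 without WT replicate 2, 3 without CD4/ALK4-KO replicate 1 and 5 when replicate 2 of that genotype was left out. *Tgfbr2* was called each time, whereas *Eng* lost its call without WT replicate 1 (adjusted p = 0.27, edgeR), *Bmpr1a* without either WT library (0.088 and 0.16) and *Acvr2b* without either WT library or CD4/ALK4-KO replicate 1 (0.051 to 0.10).

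Of 18 ligands and antagonists tested, 2 were higher and 4 were lower, beside 17.4% and 15.4% of all genes tested. *Lrrc32* encodes GARP, a carrier of latent TGF-β on regulatory T cells. It had 42 and 33 counts in WT and 89 and 154 in CD4/ALK4-KO (log2 fold change 1.85 ± 0.38). On the T cell receptor scale its log2 fold change was -0.48 and it was not called (adjusted p = 0.27, edgeR). *Grem1*, a BMP antagonist gene of stromal cells, had 350 and 257 counts in WT and 67 and 107 in CD4/ALK4-KO (log2 fold change -1.64 ± 0.30). *Ltbp1* and *Ltbp3*, genes of matrix proteins that bind latent TGF-β, had log2 fold changes of -1.35 ± 0.22 and -1.12 ± 0.23. The list's median was -0.47. Of the 7 fibroblast markers 4 were also lower, as given above, while *Pdgfra* had a log2 fold change of 0.22. The part of fibroblasts in these differences was not tested. Without WT replicate 1 the counts were 1 higher and 2 lower, with *Ltbp3* at an adjusted p of 0.053 in edgeR's test, and with any of the other libraries left out 1 or 2 were higher and 3 to 5 lower.

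Of 19 genes that respond to SMADs, 4 were higher and 5 lower, beside 17.4% and 15.4% of all genes tested. The median of the list was -0.02. *Itgae*, the gene of the CD103 integrin that TGF-β induces in T cells, had 243 and 230 counts in WT and 917 and 799 in CD4/ALK4-KO, with a log2 fold change of 2.03 ± 0.23, and its level differed by -0.32 on the T cell receptor scale, where it was not called (adjusted p = 0.24, edgeR). *Thbs1*, the gene of thrombospondin, an activator of latent TGF-β, had 10577 and 10358 counts in WT and 18434 and 28535 in CD4/ALK4-KO, with a log2 fold change of 1.33 ± 0.22. *Snai2*, a transcription factor gene of mesenchymal cells, had 183 and 138 counts in WT and 43 and 51 in CD4/ALK4-KO, with a log2 fold change of -1.60 ± 0.34. *Junb* had a log2 fold change of 0.47 with an adjusted p of 0.093 in edgeR's test, which was 0.011 and 0.030 when a CD4/ALK4-KO library was left out, but 0.26 without WT replicate 1 and 0.64 without WT replicate 2, where the value was 0.30. Without WT replicate 1 the counts were 2 higher and 1 lower, without WT replicate 2 they were 2 and 4, and without CD4/ALK4-KO replicate 1 they were 7 and 5.

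**Figure D5:**
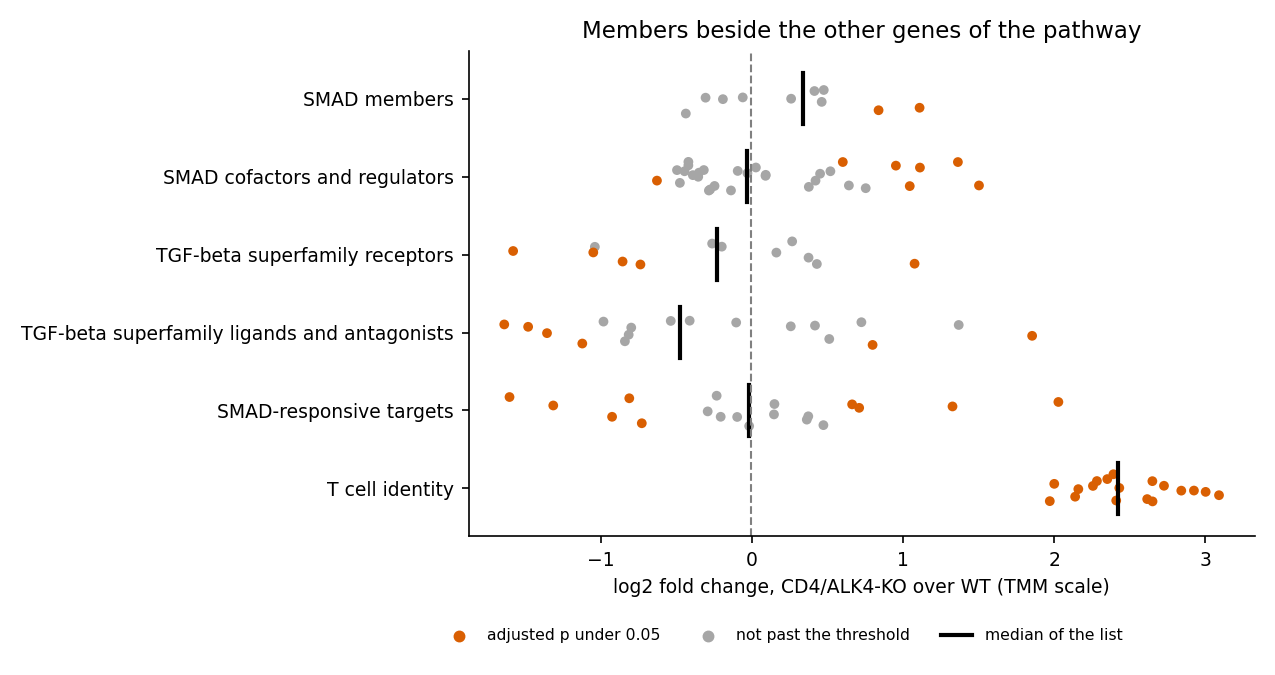
Log2 fold changes, CD4/ALK4-KO minus WT on the TMM scale, of the 10 members, of the genes tested in the 4 pathway lists and of the T cell identity markers, with 1 point per gene, called genes set apart and a bar at each list's median. The medians are 0.34 for the members, -0.03 for cofactors and regulators, -0.23 for receptors, -0.47 for ligands and antagonists and -0.02 for targets, against 2.42 for T cell identity.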

How the data were processed

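RNA-Seq libraries were prepared by the authors with the TruSeq RNA v2 kit, which does not mark strand, and sequenced as 75 bp single-end reads. The authors aligned reads to mm10 with HISAT2, counted them with htseq-count in its non-empty intersection mode, and deposited the raw counts, 1 per gene symbol, not normalized. Versions, annotation and strand option were not given in the sources used here. The series describes the 2 libraries per genotype as biological replicates. Replicates differed by more than sampling noise (chi-square per degree of freedom 16.05 for WT and 28.7 for CD4/ALK4-KO).

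Counts were tested with edgeR 4.0.16 in R 4.3.3 (filterByExpr, TMM, robust quasi-likelihood fit, genotype as sole term, Benjamini-Hochberg adjustment over 13919 genes), after the scripts were tested on simulated data. Standard errors are the absolute log2 fold change over the square root of F. Alternatives were DESeq2 1.42.0 and its size factors, upper quartile scaling, scaling to 4 T cell receptor complex genes (*Trac*, *Trbc1* and *Trbc2* were not used here), edgeR's likelihood ratio test, other filters, a replicate block and each library left out. Gene lengths, positions and sequences are those of GENCODE M21 on GRCm38. Named genes were the members, *Acvr1b*, *Cd4*, the 2 most abundant genes of each pathway list, its 3 largest called changes without overlap and with a mean of at least 50 counts, and each member's nearest gene, of which 1 is not reported here. The members and lists were chosen with earlier results of these data known.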

Additional observations from a re-analysis of the deposited data

How the results depend on the processing

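The number of genes called higher was 2422 and ranged from 1103 to 2923 with a library left out, and the number called lower was 2140 and ranged from 754 to 2618. With a library left out, 1 library remained in an arm and was assumed to vary like the others. Of the members, 2 were called higher in the main comparison, 1 without WT replicate 1, 0 without WT replicate 2 and 4 without CD4/ALK4-KO replicate 1, where 1 was called lower. On the T cell receptor scale 34 genes were called higher and 13013 lower, with 0 members higher and 10 lower, and the log2 fold changes that were above 0 turned to -1.86 for *Smad3*, -1.88 for *Smad4*, -1.23 for *Smad7*, -2.08 for *Ski*, -1.52 for *Skil*, -1.94 for *Smurf2* and -2.18 for *Acvr1b*. That scale shifts log2 fold changes by a median of -2.35. The list medians on it were -2.37 for cofactors, -2.58 for receptors, -2.81 for ligands and -2.35 for targets. With a library left out they ranged from -0.14 to 0.0012 for cofactors, from -0.28 to -0.078 for receptors, from -0.54 to -0.30 for ligands and from -0.094 to 0.18 for targets, and the cofactor median was -0.10 with upper quartile scaling. With a library left out, *Acvr1b* ranged from -0.065 to 0.39 and *Smad1* from -0.39 to 0.020. The log2 difference of *Smad3* to *Smad4* ranged from -0.14 to 0.15, being -0.089 without WT replicate 2, and that of *Smad6* to *Smad1* plus *Smad5* from -0.33 to 0.52. The deviations of WT replicate 1 and CD4/ALK4-KO replicate 1 from their group means had a correlation of -0.21 over genes. With 2 libraries per genotype this cannot show whether the replicate numbers paired the samples. With the replicate block, *Smad7* and *Skil* were called at adjusted p-values of 0.0079 and 0.042 in edgeR's test, among 1768 genes higher and 1444 lower. With crossed pairs, chosen after seeing the data, 3118 genes were higher and 3037 lower, with 5 members higher and 1 lower. The members called were 2 higher and 0 lower under the other scalings, filters and tests. Causes were not tested. Precision was limited by 2 libraries per genotype and, for *Smad6*, by 43 to 75 counts.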
